A study of Homo sapiens with 4 samples.

Results

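The genes described here are 8 enzyme genes: ASNS, GLUL, GPT2, GOT1, GOT2, ALDH18A1, PYCR1 and PCK2. They make asparagine, glutamine, alanine, aspartate and proline, and PCK2 is the mitochondrial phosphoenolpyruvate carboxykinase. They were chosen by name with earlier results of the same comparison known, so their levels and fold changes are a description and carry no test. All 8 were found among the 20286 genes of the count files, and all 8 were among the 12698 genes that passed the filter on low counts. RNA was sequenced from the human liver cancer line HLE, an established cell line from a hepatocellular carcinoma, that stably expressed CYR61 (2 libraries) or carried an empty Vector (2 libraries). CYR61, whose current symbol is CCN1, is a secreted matricellular protein of the CCN family. The series' design text describes the libraries of a group as independent cultures of the total population of one stable line, grown without further treatment. Test results therefore measure the spread between cultures of one population and not between separately made populations.

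ASNS transfers an amide group from glutamine to aspartate and so makes asparagine, while GLUL (glutamine synthetase) makes glutamine from glutamate and ammonia. The aminotransferases GPT2 (mitochondrial, alanine), GOT1 (cytosolic, aspartate) and GOT2 (mitochondrial, aspartate) exchange amino groups with glutamate, ALDH18A1 and PYCR1 open and close the mitochondrial route from glutamate to proline, and PCK2 makes phosphoenolpyruvate from oxaloacetate. ASNS is a textbook target of ATF4, the transcription factor of the amino acid and integrated stress responses, and PCK2, GPT2, PYCR1 and ALDH18A1 have been described as part of the same response in other cells. In liver, GLUL marks the hepatocytes around the central vein and is a known target of Wnt and beta-catenin signalling.

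Promoter windows of RefSeq, on build GRCh38.p14, were used to show what lies at the start of these genes. They run from 250 bases before to 50 bases after a start site. The table held 8 windows for 6 of the 8 members, with ASNS and GLUL having 2 windows each, and GPT2 and PYCR1 were not matched. Each window was searched on both strands for TGATGNAA, a pattern bound by ATF4 with C/EBP partners, for TGACGTCA, the cyclic AMP response element, and for CACGTG, the E-box. The first window of ASNS (chr7:97872359-97872658, minus strand) and the window of GOT1 (chr10:99430575-99430874, minus strand) each held 1 match to the first pattern. The window of PCK2 (chr14:24094061-24094360, plus strand) held none of the 3 patterns and is shown beside them because its gene differed as much between the groups as ASNS. Capitals mark the match, and each sequence is read 5′ to 3′ along the gene's strand.
ASNS: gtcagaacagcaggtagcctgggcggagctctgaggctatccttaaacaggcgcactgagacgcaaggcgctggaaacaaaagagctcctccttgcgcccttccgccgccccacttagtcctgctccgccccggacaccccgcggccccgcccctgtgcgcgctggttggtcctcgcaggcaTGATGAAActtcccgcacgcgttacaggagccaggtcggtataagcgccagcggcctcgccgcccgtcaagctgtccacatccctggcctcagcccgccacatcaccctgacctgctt
GOT1: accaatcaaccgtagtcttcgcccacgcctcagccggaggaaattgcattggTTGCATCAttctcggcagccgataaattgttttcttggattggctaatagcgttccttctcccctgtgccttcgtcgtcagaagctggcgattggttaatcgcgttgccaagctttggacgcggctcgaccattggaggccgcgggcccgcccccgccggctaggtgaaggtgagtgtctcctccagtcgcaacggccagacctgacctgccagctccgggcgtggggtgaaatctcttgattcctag
PCK2: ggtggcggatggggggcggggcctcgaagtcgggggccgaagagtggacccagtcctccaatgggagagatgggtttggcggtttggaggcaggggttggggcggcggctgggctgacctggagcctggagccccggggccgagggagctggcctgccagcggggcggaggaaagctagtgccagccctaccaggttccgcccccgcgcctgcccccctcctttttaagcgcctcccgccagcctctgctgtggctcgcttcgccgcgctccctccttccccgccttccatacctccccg
The ASNS match, TGATGAAA, begins at position -68 relative to the start site, and a stretch with these letters is known in the ASNS promoter as part of its nutrient-sensing response unit. The GOT1 match is in the other orientation, TTGCATCA, and begins at position -198. ALDH18A1 (chr10:95656662-95656961, minus strand) held 1 E-box at position -136, and the windows of GOT2, both windows of GLUL and the second window of ASNS held none of the 3. No 2 matches shared bases. Of all 35116 RefSeq windows, 3.62% held TGATGNAA, 1.85% held TGACGTCA and 7.26% held CACGTG. A match describes letters and is not evidence of binding, and a window without one says nothing about the factor.

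The libraries held 21388465 and 16186988 estimated counts for CYR61 and 19118548 and 21588822 for Vector, with counts in 14573 to 15068 genes per library. Levels are given as CPM, estimated counts relative to the library's total, scaled by the TMM method. CYR61 itself, a check of the labels, stood at 8090 and 8620 CPM in the CYR61 libraries, against 221 and 218 CPM in the Vector libraries. Introduced and endogenous transcripts are counted together in these values. The hepatocyte genes ALB, APOB and TTR had no count in any library, and 4 of 10 hepatocyte markers passed the filter. Of those 4, edgeR called 0, with 0 at an unadjusted p under 0.05 and 0 called by DESeq2 or limma-voom. The 10 markers summed to 655 and 645 CPM in CYR61 cells and 706 and 701 CPM in Vector cells, nearly all of it from CPS1, the first enzyme of the urea cycle. Summed levels of 5 endothelial markers were 2.46 and 2.63 CPM in CYR61 cells and 2.55 and 1.95 CPM in Vector cells. Those of 6 fibroblast markers were 38.3 and 38.3 CPM in CYR61 cells and 46.6 and 38.2 CPM in Vector cells. Of the 3 that were tested, only DCN (decorin) was called. DCN was higher, at 3.67 and 2.25 CPM in CYR61 cells and 0.637 and 0.543 CPM in Vector cells (edgeR adjusted p = 0.00746). COL1A1 and PDGFRB lay the other way, at log2 fold changes of -0.20 and -0.36 (edgeR adjusted p = 0.545 and 0.229). Summed levels of 6 immune markers were 49.1 and 53.9 CPM in CYR61 cells and 68.1 and 63.4 CPM in Vector cells. Nearly all of this came from CD68, at 48.1 and 53.3 CPM in CYR61 cells and 67.2 and 62.6 CPM in Vector cells. CD68 did not overlap between the groups (log2 fold change -0.36, edgeR unadjusted p = 0.0186, adjusted p = 0.125, and adjusted p = 0.013 with a trend on GC content removed). The 11 mitochondrially encoded transcripts summed to 40700 and 38100 CPM in CYR61 cells and 36800 and 39300 CPM in Vector cells, with 9 of the 11 at log2 fold changes above 0 and a median of 0.22. Of these MT-ND1, a subunit of complex I, was called higher, at 2000 and 1670 CPM in CYR61 cells and 1040 and 1230 CPM in Vector cells (log2 fold change 0.70, edgeR adjusted p = 0.0124). What part these marker levels have in the values below was not tested. In bulk RNA, fewer cells of a kind and less RNA per cell cannot be told apart.

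ASNS, PCK2 and GPT2 stood clearly lower in the CYR61 libraries, by 4.0-fold, 3.99-fold and 2.44-fold. PYCR1, GOT1 and GLUL were lower by smaller amounts, GOT2 was higher, and ALDH18A1 overlapped between the groups. A gene is called here when its adjusted p is under 0.05 in edgeR's quasi-likelihood test with Benjamini-Hochberg adjustment over all 12698 genes. By that rule 3 of the 8 were called, ASNS, PCK2 and GPT2, all lower in CYR61 cells, where 6.39% of all tested genes were called, 4.56% lower and 1.83% higher. Since the genes were chosen with this comparison known, nothing is read from that count. The median log2 fold change of the 8 was -0.34, with 6 below 0 and 2 above, against a median of -0.01 over all tested genes. Levels of the groups did not overlap for 6 members that were lower and 1 that was higher, and this held for 27.7% (lower) and 23.9% (higher) of all tested genes, or 51.5% in either direction. The 811 calls over all genes became 1331 without the second CYR61 library and 481 without the first Vector library. Part of the spread between cultures followed GC content, and with a trend on GC content removed from each library 3549 genes (27.9%) were called, 47.2% of them lower in CYR61 cells, where 71.4% of the 811 were lower.

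**Figure D1:**
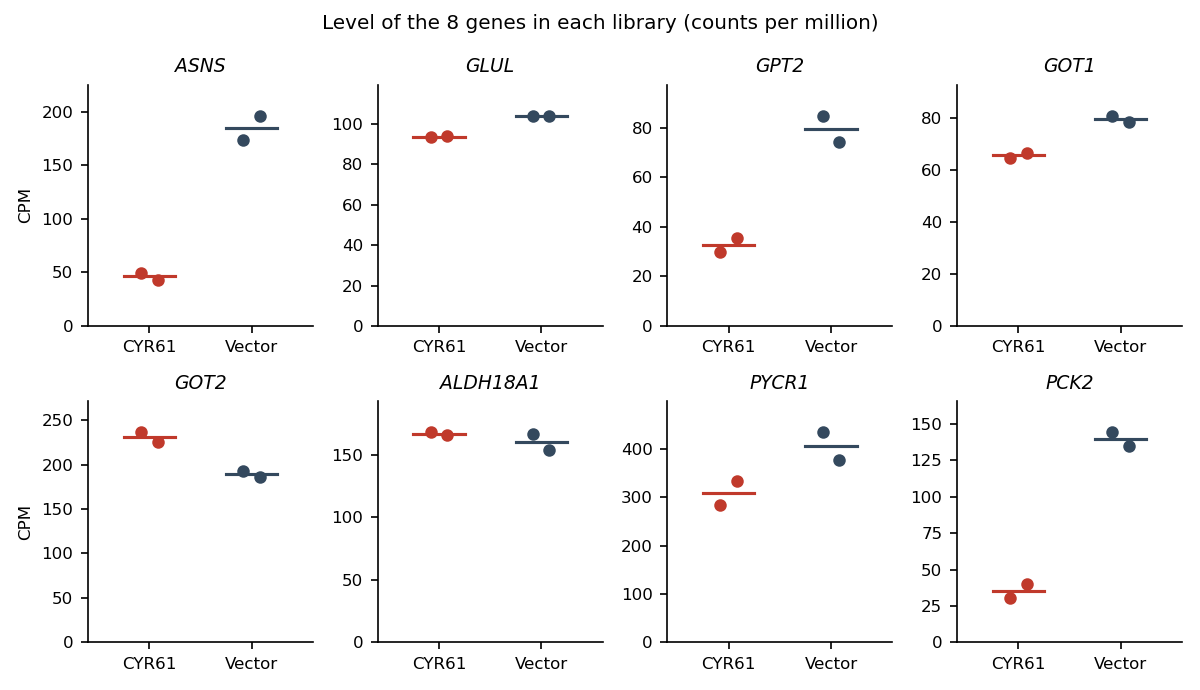
Level of each of the 8 genes in CPM on the vertical axis, with 1 point per library and a line at the group mean, for CYR61 and Vector. ASNS, PCK2 and GPT2 show the widest gaps, with CYR61 points at 29.8 to 49.4 CPM and Vector points at 74.2 to 196 CPM, and ALDH18A1 is the member whose points overlap.

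**Figure D2:**
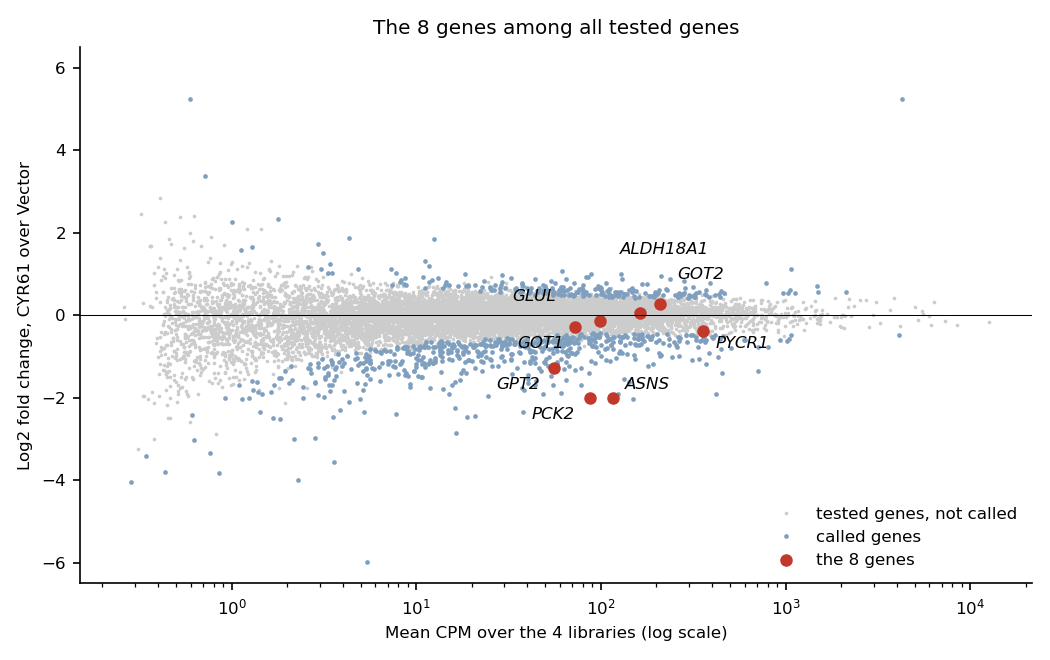
Log2 fold change (CYR61 over Vector) on the vertical axis against the mean CPM of the 4 libraries on a log scale, for the 12698 tested genes. Blue points are the 811 called genes, grey points the others, and red points the 8 genes, of which ASNS and PCK2 lie at -2.00 and GOT2 at 0.28.

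Asparagine synthesis came down to 1 gene, ASNS (ENSG00000070669, hg38 chr7:97852118-97872542, minus strand). It stood at 49.4 and 43.0 CPM in the CYR61 libraries, against 174 and 196 CPM in the Vector libraries. Both CYR61 cultures were far below both Vector cultures, and the lowest Vector value was 3.53 times the highest CYR61 value. The means were 46.2 ± 4.57 CPM in CYR61 cells and 185 ± 15.3 CPM in Vector cells (SD, n = 2 each), which gave a log2 difference of -2.00 (SE 0.13). These levels rest on 1063 and 686 estimated counts in CYR61 cells and 3287 and 4329 in Vector cells. Leaving out each library in turn gave -2.10 to -1.90. In GENCODE release 29, 44.6% of the ASNS exon bases, counted here and in the other overlaps over the exons of all annotated transcripts, are also exon of AC079781.5 on the same strand, a locus that has no row in the count files, and 4 ASNS pseudogenes have none either. How the authors assigned reads of such copies is unknown here.

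The list of other genes of asparagine and aspartate use held 12 genes. Of these 11 were tested and 1 was called (9.09%, against 6.39% of all tested genes), and the median log2 fold change was 0.04. The call was ADSS1, an adenylosuccinate synthase that joins aspartate to IMP, at 18.6 and 20.6 CPM in CYR61 cells against 36.1 and 29.5 CPM in Vector cells (log2 fold change -0.74, SE 0.16, edgeR adjusted p = 0.0245). Without the first Vector library it was not called (-0.59, edgeR adjusted p = 0.185). The paralog ADSS2 lay the other way, at 70.0 and 55.4 CPM in CYR61 cells and 41.1 and 48.8 CPM in Vector cells. ADSS2 gave 0.48 (SE 0.15, edgeR adjusted p = 0.0955), and 0.44 with the GC trend removed (edgeR adjusted p = 0.00289). It was named after its value was seen. ASNSD1, a gene with an asparagine synthetase domain, gave -0.16 (edgeR adjusted p = 0.685). The asparaginase gene ASPG gave 0.10 (edgeR adjusted p = 0.891), from under 2 CPM in each library. ASS1 and CAD, which take aspartate into arginine and pyrimidine synthesis, were not called, at -0.30 and 0.29. With the GC trend removed they were called, at -0.22 (edgeR adjusted p = 0.0207) and 0.37 (edgeR adjusted p = 0.0018). Both were named after their values were seen.

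GLUL (ENSG00000135821, chr1:182381704-182392206, minus strand), glutamine synthetase, had nearly equal levels in the cultures of a group. It measured 93.5 and 93.9 CPM in CYR61 cells and 104 and 104 CPM in Vector cells, with 1500 or more estimated counts in each library. The groups lay apart by a small step. The means were 93.7 ± 0.333 CPM in CYR61 cells and 104 ± 0.0572 CPM in Vector cells (SD, n = 2 each), which gave a log2 difference of -0.15 (SE 0.11). With 2 cultures a group such small SDs are themselves uncertain, and with the GC trend removed the log2 differences between cultures were -0.14 for CYR61 and 0.10 for Vector.

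Among 15 glutamine and glutamate genes, 13 were tested and 1 was called (7.69%, against 6.39% of all tested genes). This was GFPT1, which uses glutamine to make glucosamine 6-phosphate, at 102 and 86.9 CPM in CYR61 cells and 168 and 194 CPM in Vector cells (log2 fold change -0.94, SE 0.13, edgeR adjusted p = 0.00263). Over the 13 the median was 0.08. GLS2, the liver-type glutaminase, did not pass the filter, with 2.23 estimated counts in 1 CYR61 library and 0 in the others.

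GLUL was also set beside 11 genes of Wnt signalling and the pericentral liver zone. Of these, 8 were tested and 1 was called (12.5%, against 6.39% of all tested genes), and the median was 0.01. NOTUM, a secreted Wnt inhibitor, was lower, at 12.1 and 13.5 CPM in CYR61 cells against 34.8 and 30.6 CPM in Vector cells (log2 fold change -1.36, SE 0.16, edgeR adjusted p = 0.00129). AXIN2, a common readout of Wnt activity named after its value was seen, gave 0.19 (edgeR adjusted p = 0.564). ZNRF3, NKD1 and CYP2E1, named likewise, gave 0.50, 0.86 and -1.21 (edgeR adjusted p = 0.102, 0.194 and 0.205). NKD1 stood at only 0.906 to 1.86 CPM and CYP2E1 at 0.372 to 1.22 CPM. With the GC trend removed, where 27.9% of all tested genes were called, ZNRF3 was called (0.55, edgeR adjusted p = 0.00836). Of the 8 tested genes, 4 lay above 0 and 4 below. CYP1A2 and RHBG, pericentral genes of liver, were at 0 in all 4 libraries.

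The aminotransferases differed among themselves. GPT2 (ENSG00000166123, chr16:46884378-46931297, plus strand), mitochondrial alanine aminotransferase, measured 29.8 and 35.4 CPM in CYR61 cells and 84.7 and 74.2 CPM in Vector cells. The groups were well apart, and the lowest Vector value was 2.1 times the highest CYR61 value. Its means were 32.6 ± 3.98 CPM in CYR61 cells and 79.5 ± 7.41 CPM in Vector cells (SD, n = 2 each), which gave a log2 difference of -1.29 (SE 0.14) that ran from -1.42 to -1.15 as single libraries were left out. The cytosolic paralog GPT was scarce, at 0.884 and 1.69 CPM in CYR61 cells and 2.18 and 1.40 CPM in Vector cells (log2 fold change -0.50, edgeR adjusted p = 0.516). Per kilobase, GPT2 was 93.9% and 90.5% of the pair in CYR61 cells and 94.7% and 96.0% in Vector cells.

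GOT1 (ENSG00000120053, chr10:99396870-99431569, minus strand), cytosolic aspartate aminotransferase, had 64.9 and 66.6 CPM in CYR61 cells and 80.9 and 78.7 CPM in Vector cells. GOT2 (ENSG00000125166, chr16:58707131-58734357, minus strand), its mitochondrial partner in the malate-aspartate shuttle, had 236 and 225 CPM in CYR61 cells and 193 and 186 CPM in Vector cells. The groups did not overlap for either gene, and they lay in opposite directions, with log2 fold changes of -0.28 (SE 0.12) for GOT1 and 0.28 (SE 0.11) for GOT2. Means were 65.7 ± 1.2 CPM in CYR61 cells and 79.8 ± 1.5 CPM in Vector cells for GOT1 (SD, n = 2 each). For GOT2 they were 230 ± 7.5 CPM in CYR61 cells and 189 ± 5.34 CPM in Vector cells (SD, n = 2 each). GOT2 therefore made up 81.2% and 80.1% of the summed CPM per kilobase of the pair in CYR61 cells, against 73.9% and 73.7% in Vector cells. The share gap between groups was wider than that between cultures, and it follows from the opposite signs of the members. In GENCODE release 29, 19.3% of the GOT1 exon bases lie opposite the exons of AL391684.1 and 4.3% of those of GOT2 opposite AC092378.1, neither with a row in the count files. GOT1L1, the remaining GOT family gene, had no count in any library.

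Among 12 other aminotransferase genes 6 were tested and 1 was called (16.7%, against 6.39% of all tested genes), with a median of -0.35. PSAT1, the aminotransferase of serine synthesis, measured 107 and 89.1 CPM in CYR61 cells and 196 and 217 CPM in Vector cells (log2 fold change -1.07, SE 0.13, edgeR adjusted p = 0.00144). BCAT2, the mitochondrial branched-chain aminotransferase named after its value was seen, gave 0.00 (edgeR adjusted p = 0.991).

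**Figure D3:**
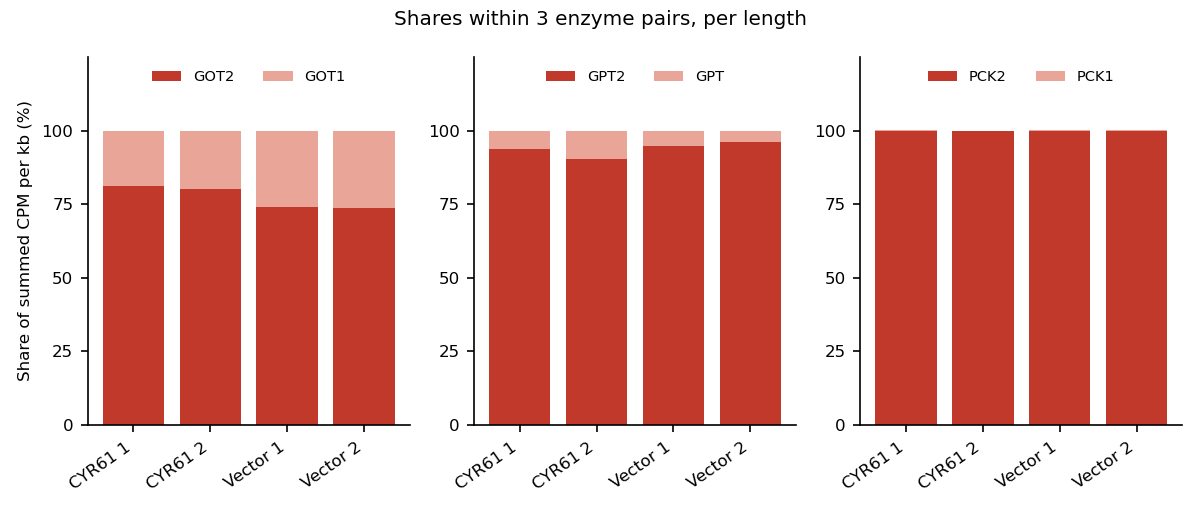
Share of the summed CPM per kilobase of exon, in percent, in each library for GOT2 and GOT1 (left), GPT2 and GPT (middle) and PCK2 and PCK1 (right), with CYR61 libraries left of Vector libraries. The GOT2 share is 81.2% and 80.1% in CYR61 cells and 73.9% and 73.7% in Vector cells, and GPT2 and PCK2 hold at least 90.5% of their pairs in each library.

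Proline synthesis opens with ALDH18A1 (ENSG00000059573, chr10:95605929-95656706, minus strand), which reduces glutamate to the semialdehyde. It measured 168 and 166 CPM in CYR61 cells and 167 and 154 CPM in Vector cells. The groups overlapped, and the means were 167 ± 1.42 CPM in CYR61 cells and 160 ± 8.63 CPM in Vector cells (SD, n = 2 each), which gave a log2 difference of 0.06 (SE 0.11). PYCR1 (ENSG00000183010, chr17:81932384-81942412, minus strand), a mitochondrial pyrroline-5-carboxylate reductase that closes the route, measured 285 and 333 CPM in CYR61 cells and 434 and 378 CPM in Vector cells. The groups did not overlap, but the lowest Vector value was only 1.13 times the highest CYR61 value. PYCR1 means were 309 ± 33.9 CPM in CYR61 cells and 406 ± 39.3 CPM in Vector cells (SD, n = 2 each), which gave a log2 difference of -0.39 (SE 0.12) with a range of -0.51 to -0.27 as single libraries were left out. The first and last enzyme genes of the route thus did not differ by the same amount. MYADML2, whose exons cover 14.1% of the PYCR1 exon bases on the same strand, was under 1 CPM in each library, and the summed locus gave the same -0.39.

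PYCR3, the cytosolic form of the reductase, measured 52.4 and 62.8 CPM in CYR61 cells and 47.2 and 37.8 CPM in Vector cells (log2 fold change 0.44, SE 0.15, edgeR adjusted p = 0.12). As single libraries were left out, PYCR3 ran from 0.29 to 0.61. It was called in edgeR with no filter (0.44, adjusted p = 0.0372) and with the GC trend removed (0.55, adjusted p = 0.000922). The same held with the GC trend removed and the replicate block (0.55, edgeR adjusted p = 0.0092).

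Degradation of proline and the ornithine branch gave a mixed picture. PRODH and ALDH4A1, the consecutive enzymes that oxidise proline back to glutamate, were not called, with log2 fold changes of -0.36 (edgeR adjusted p = 0.465) and -0.41 (edgeR adjusted p = 0.22). Among 14 proline and ornithine genes, 11 were tested, 1 was higher and 2 were lower, with a median of -0.36. The called share was 27.3%, against 6.39% of all tested genes. ODC1, the first enzyme of polyamine synthesis, was higher, at 285 and 263 CPM in CYR61 cells and 172 and 181 CPM in Vector cells (log2 fold change 0.63, SE 0.11, edgeR adjusted p = 0.00915). Without the first Vector library its adjusted p was 0.0548 in edgeR, with a log2 fold change of 0.59. ARG2, the mitochondrial arginase that makes ornithine, was lower, at 1.86 and 1.32 CPM in CYR61 cells and 5.31 and 5.03 CPM in Vector cells (log2 fold change -1.68, SE 0.27, edgeR adjusted p = 0.00627). ARG2 is uncertain, since 37.4% of its exon bases lie opposite the exons of VTI1B, which stood at 82.4 to 84.5 CPM. The summed CPM of both genes gave a log2 ratio of -0.05. VTI1B makes up nearly all of that sum, so it cannot show whether ARG2 differed. P4HA3, a subunit of the collagen prolyl 4-hydroxylase, was lower (log2 fold change -0.81, SE 0.20, edgeR adjusted p = 0.0422). P4HA3 was not called without the first CYR61 library (edgeR adjusted p = 0.118) or without the first Vector library (edgeR adjusted p = 0.26). Other tools left it just above the threshold, DESeq2 at an adjusted p of 0.0531 and limma-voom at 0.0504. P4HA1 and P4HA2, named after their values were seen, gave -0.41 and -0.43 and were not called (edgeR adjusted p = 0.238 and 0.0984). With the GC trend removed, where 27.9% of all tested genes were called, P4HA1, P4HA2 and P4HA3 were called (edgeR adjusted p = 0.0114, 0.0082 and 0.00506).

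PCK2 (ENSG00000100889, chr14:24094053-24110598, plus strand) matched ASNS in size of difference. It measured 30.4 and 39.8 CPM in CYR61 cells and 144 and 135 CPM in Vector cells, from 635 to 2976 estimated counts. Both CYR61 cultures were far below both Vector cultures, and the lowest Vector value was 3.39 times the highest CYR61 value. The means were 35.1 ± 6.65 CPM in CYR61 cells and 140 ± 6.81 CPM in Vector cells (SD, n = 2 each), which gave a log2 difference of -2.00 (SE 0.15) that ran from -2.20 to -1.80 as single libraries were left out. PCK1, the cytosolic form known for gluconeogenesis in liver, did not pass the filter, with 2 and 1 estimated counts in CYR61 cells and 5 and 5 in Vector cells. PCK2 thus made up at least 99.8% of the pair's CPM per kilobase in every library.

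The list of genes around PCK2 in phosphoenolpyruvate, pyruvate and malate metabolism held 18 genes. Of these 14 were tested and 1 was called (7.14%, against 6.39% of all tested genes), with a median of -0.13. PC, pyruvate carboxylase, which makes the oxaloacetate that PCK2 uses, was lower, at 69.0 and 82.4 CPM in CYR61 cells and 144 and 124 CPM in Vector cells (log2 fold change -0.82, SE 0.14, edgeR adjusted p = 0.00631). On the opposite strand, exons of LRFN4 cover 10.5% of the PC exon bases, and LRFN4 lay the other way, at a log2 fold change of 0.27. The summed CPM of PC and LRFN4 gave a log2 ratio of -0.17. LRFN4, at 130 to 169 CPM, makes up a large part of that sum, so it cannot show whether PC differed. Genes of the malate-aspartate shuttle beside GOT1 and GOT2 were named after their values were seen. MDH1 and MDH2 gave 0.19 and 0.00, and the carrier gene SLC25A11 gave -0.00. The aspartate-glutamate carriers SLC25A12 and SLC25A13 gave 0.30 and 0.36, and none of these shuttle genes was called by the rule used here. With the GC trend removed, where 27.9% of all tested genes were called, only SLC25A13 of these was called (0.34, edgeR adjusted p = 0.00668).

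Over the 5 enzyme lists together, 55 of 71 genes were tested, 1 was called higher and 6 lower, or 12.7% against 6.39% of all tested genes. DESeq2 and limma-voom each called 1 higher and 5 lower. The lists were drawn up with earlier results of these data known, so these shares are a description.

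The ATF4 branch was the related list with most calls, and all 16 of its genes were tested. In CYR61 cells 10 of the 16 were lower and 1 was higher, with a median of -0.85. The called share was 68.8%, against 6.39% of all tested genes (4.56% lower and 1.83% higher). This list too was drawn up with earlier results of these data known, so the share is a description. TRIB3, a pseudokinase gene induced by ATF4, measured 63.9 and 76.3 CPM in CYR61 cells and 229 and 202 CPM in Vector cells (log2 fold change -1.62, SE 0.13, edgeR adjusted p = 0.000162). CHAC1, which degrades glutathione, measured 4.65 and 7.08 CPM in CYR61 cells and 34.4 and 29.6 CPM in Vector cells (log2 fold change -2.46, SE 0.21, edgeR adjusted p = 0.000191). NUPR1, a small stress-induced chromatin protein, gave -1.70 (SE 0.16, edgeR adjusted p = 0.000365). DDIT3, the factor CHOP, gave -1.56 (SE 0.16, edgeR adjusted p = 0.000617). The DDIT3 value is uncertain, since 27.2% of its exon bases lie opposite the exons of MARS1, which was itself at -0.99. The summed CPM of both gave a log2 ratio of -1.03. MARS1, at 132 to 282 CPM, makes up most of that sum, so it says little about DDIT3.

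ATF4 itself gave a smaller value than those 4 genes, a difference that was not tested. Its transcript measured 153 and 177 CPM in CYR61 cells and 264 and 232 CPM in Vector cells, with no overlap (log2 fold change -0.59, SE 0.12, edgeR adjusted p = 0.0213). It was not called without the first CYR61 library (-0.48, edgeR adjusted p = 0.11) or without the first Vector library (-0.50, edgeR adjusted p = 0.141). ATF4 is controlled largely at translation, which these data do not measure. ATF5, a related factor named after its value was seen, was the gene called higher, at 22.7 and 26.1 CPM in CYR61 cells and 12.1 and 12.3 CPM in Vector cells (log2 fold change 1.00, SE 0.16, edgeR adjusted p = 0.00617). Exons of NUP62 on the opposite strand cover 21.2% of the ATF5 exon bases, and the summed locus gave 0.43. NUP62, at 109 to 144 CPM and a log2 fold change of 0.35, makes up most of that sum, so it says little about ATF5. The 4 kinases of eIF2 in the list, EIF2AK1 to EIF2AK4, and PPP1R15B were not called. With the GC trend removed, only EIF2AK4 of these was called (0.23, edgeR adjusted p = 0.0274).

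**Figure D4:**
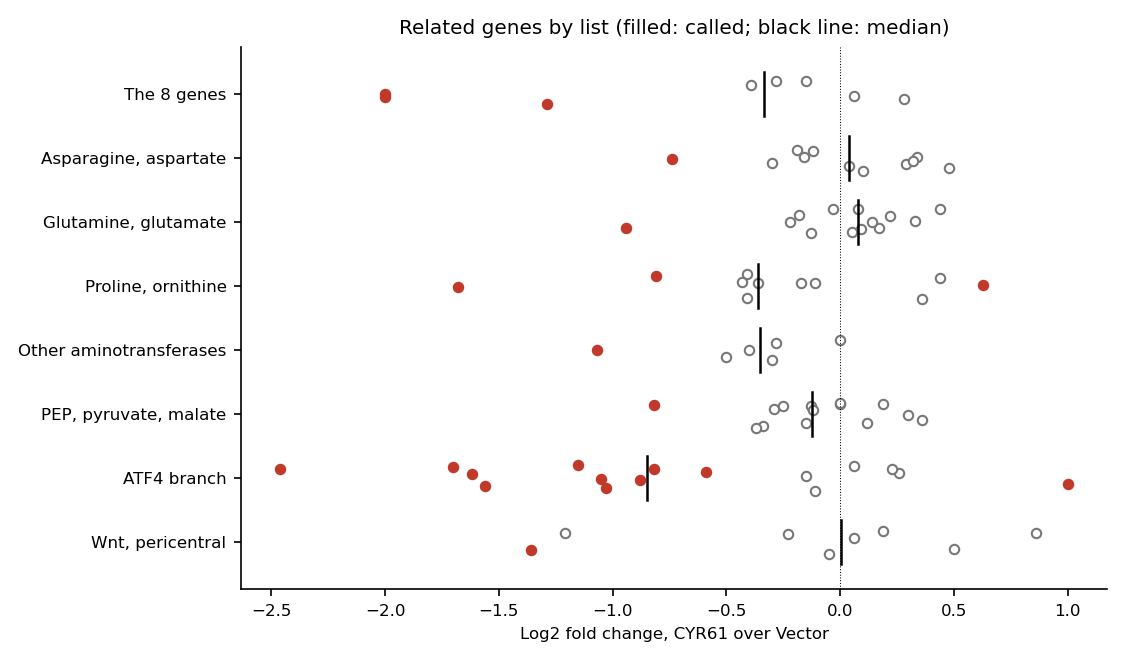
Log2 fold change (CYR61 over Vector) on the horizontal axis for each tested gene of the 8 enzyme genes and the 7 related lists, 1 row per list. Filled points are called genes and black lines are list medians, which run from -0.85 for the ATF4 branch to 0.08 for the glutamine and glutamate genes.

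Levels between genes were compared per kilobase of exon. In CYR61 cells the order was PYCR1 at 135 CPM per kilobase, GOT2 at 93.5, ALDH18A1 at 49.8, GOT1 at 22.5, ASNS at 18.5, GLUL at 16.9, PCK2 at 11.0 and GPT2 at 7.29. In Vector cells it was PYCR1 at 177 CPM per kilobase, GOT2 at 76.9, ASNS at 74.4, ALDH18A1 at 47.8, PCK2 at 43.6, GOT1 at 27.3, GLUL at 18.8 and GPT2 at 17.8. ASNS was thus the fifth of the 8 in CYR61 cells and the third in Vector cells, and PCK2 was the seventh in CYR61 cells and the fifth in Vector cells. Values of GOT2 and ASNS overlapped in Vector cells, at 78.5 and 75.4 for GOT2 and 70.0 and 78.7 for ASNS. Those of GLUL and GPT2 overlapped there too, at 18.8 and 18.8 for GLUL and 19.0 and 16.6 for GPT2. ASNS and GLUL lay close in CYR61 cells, at 19.8 and 17.2 CPM per kilobase for ASNS and 16.9 and 16.9 for GLUL. In Vector cells all 8 stood in the upper part of the tested genes by level per kilobase, from percentile 72.5 for GPT2 to percentile 97.8 for PYCR1.

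Differences between cultures of a group ran with base composition in some members. PCK2 (61.6% GC) and PYCR1 (61.8% GC) had log2 differences of -0.39 and -0.22 between the first and second CYR61 cultures, and of 0.10 and 0.20 between the first and second Vector cultures. ASNS (47.0% GC) went the other way, at 0.20 and -0.17. With the GC trend removed, PYCR1 differed by -0.02 and 0.02 between cultures, PCK2 by -0.18 and -0.08, and ASNS by 0.15 and -0.13. The log2 fold changes were then -2.00 (SE 0.08) for ASNS, -1.90 (SE 0.08) for PCK2, -1.22 (SE 0.08) for GPT2, -0.29 (SE 0.06) for PYCR1, -0.23 (SE 0.07) for GOT1, -0.17 (SE 0.07) for GLUL, 0.08 (SE 0.06) for ALDH18A1 and 0.31 (SE 0.06) for GOT2. In that fit 6 of the 8 were called, GOT1, PYCR1 and GOT2 in addition, where 27.9% of all tested genes were. ASNS, PCK2 and GPT2 were called under each of the 17 alternatives run, and none of the 8 changed sign in any.

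**Figure D5:**
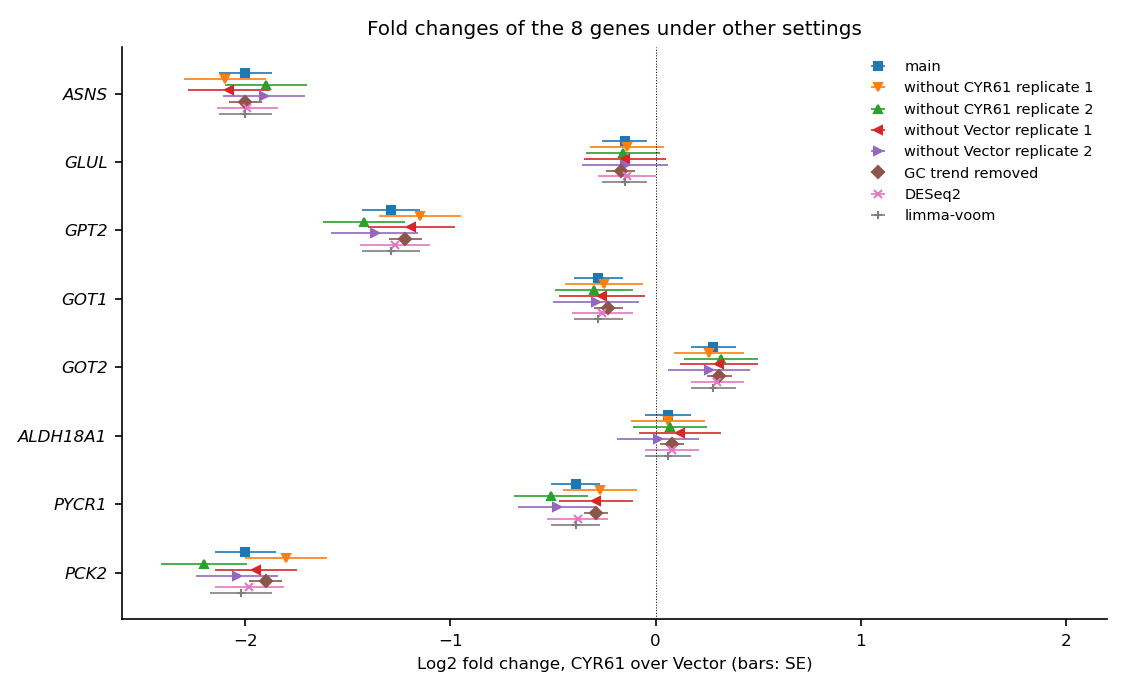
Log2 fold change (CYR61 over Vector, bars: SE) on the horizontal axis for the 8 genes as reported and under 7 other settings, 1 symbol each. ASNS stays between -2.10 and -1.90, PCK2 between -2.20 and -1.80 and GPT2 between -1.42 and -1.15, and ALDH18A1 stays near 0.

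The patterns of the members over the 4 libraries were compared by the Euclidean distance between log2 CPM values centred per gene. Among the 8, ASNS and PCK2 were at 0.46, PCK2 and GPT2 at 0.73 and ASNS and GPT2 at 0.82, while ASNS and GOT2, which differed in opposite directions, were at 2.29. Over 10359 genes of at least 5 CPM, those nearest to ASNS included STC2 (distance 0.24), the glucose transporter gene SLC2A3 (0.27), the cystine carrier gene SLC7A11 (0.31) and MALL (0.37). STC2, stanniocalcin 2, measured 51.1 and 52.2 CPM in CYR61 cells and 199 and 192 CPM in Vector cells. Nearest to PCK2 were ADM2 (0.10), ABCG1 (0.13) and TPBG (0.14), and nearest to GPT2 were SMOX (0.05), BHLHE40 (0.08) and NOTUM (0.09). PYCR1 was nearest to AP2A1, IGFBP4 and FLOT1 (0.02 each), GOT1 to PPP1R18, DHRS13 and HAX1, GOT2 to ATP8B3, DPY30 and NAT10, GLUL to PYGO2, WFDC1 and CCDC127, and ALDH18A1 to RPN1, PRUNE1 and MCM4, all within 0.02. With 4 libraries in 2 groups, such closeness says little more than that the fold changes and culture differences were alike.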

How the data were processed

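RNA of HLE cells was sequenced in 2 CYR61 and 2 Vector libraries. The authors deposited a table of estimated counts per gene for each library, of which 11.2% to 12.0% were not whole numbers. Per the submitters' processing notes the build was hg38 and the tools included Cuffdiff 1.3.0, Cufflinks 2.2.1 and TopHat2 2.1.1. For the counting step, program, annotation and strandedness are not given in the sources used, so reads of overlapping and antisense genes cannot be told apart.

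Estimated counts were rounded, filtered with filterByExpr, scaled by TMM and tested by the quasi-likelihood F test of edgeR 4.0.16 in R 4.3.3, with the group as the model. Benjamini-Hochberg adjustment covered all 12698 genes, with a threshold of 0.05. A log2 fold change is CYR61 over Vector, and its SE is its size over the root of F. Symbols were found for 20228 of 20286 identifiers and positions for 20212 (GENCODE release 29). Exon length for levels per kilobase is the union of protein-coding transcripts in the basic set, and exon overlaps are shares of the union of all transcripts. Scripts were tested on simulated data. The precision of low genes is limited by counting.

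The members and gene lists were chosen with earlier results of these data known. Named genes were the 8 members, CYR61, up to 4 called genes of smallest adjusted p per list (or 1 where none was called), a set of paralogs and opposing enzymes, ATF4, and the genes of nearest pattern (5 for ASNS, 3 for each other member; log2 CPM with a prior count of 2; clone-based, antisense and pseudogene symbols left out). Some genes that this rule named are not reported here. Alternatives were DESeq2 1.42.0, limma-voom (limma 3.58.1), RLE, upper quartile and library-size scaling, no filter, a 5 CPM minimum in 2 libraries, each library left out, CYR61 left out of library sizes, the replicate number as a block, and a per-library GC trend removed (natural spline, 5 degrees of freedom, fitted on genes of at least 5 CPM). Blocks on crossed replicate numbers were a later addition, chosen after seeing the data.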

Additional observations from a re-analysis of the deposited data

How the results depend on the processing

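The counts of called genes depended on the processing more than the values did. Over all genes the count was 811, and it was 1677 with no filter, 391 with the replicate block, 3549 with the GC trend removed, 2034 with the GC trend removed and the replicate block, and 481 to 1331 as single libraries were left out. Of the calls, 61.4% were lower in CYR61 cells with no filter, 86.4% with the replicate block and 59.6% without the second CYR61 library, against 71.4% of the 811. With the block and the GC trend removed, 1017 were lower and 1017 higher. Of the 8 members 3 were called, but 4 with no filter, 6 with the GC trend removed, and 5 with the GC trend removed and the replicate block. Of the 79 related genes tested 19 were called (24.1%, against 6.39% of all tested genes). With the GC trend removed 35 were called, where 27.9% of all tested genes were. Same-numbered libraries did not deviate together (r = -0.714 across 10377 genes, -0.383 with the GC trend removed), so the numbers are not taken as pairs. With the replicate block 15 related genes were called, and ATF4, ADSS1, ODC1 and P4HA3 were not. A block on crossed numbers, added after the data were seen, called 5624 genes, 7 members and 49 related genes, and 5681, 7 and 50 with the GC trend removed as well. Reported values that changed sign were those of genes near 0 that were not called. Across the single libraries left out, ASNSD1 ran from -0.40 to 0.05 and ASPG from -0.05 to 0.26. ASNSD1 gave 0.04 without the second CYR61 library and 0.05 without the second Vector library, and ASPG gave -0.05 without the second Vector library. Scaling by library size alone left P4HA3 uncalled. The cause of these changes was not tested. A library left out leaves 1 in its group, which is then assumed to vary like the other group. With 2 cultures a group, small differences such as those of GLUL and ALDH18A1 are not resolved by the fit on group, and genes below about 2 CPM such as ASPG, GPT and PCK1 rest on few counts.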
